A study of Mus musculus with 3 samples.

Results

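The genes described here are Nodal, a signalling protein of the TGF-beta superfamily, and 9 genes that act with it or against it: Lefty1, Lefty2, Cer1, Tdgf1, Gdf3, Gdf1, Foxh1, Acvr1c and Pcsk6. They were taken by name from the gene probes of 3 one-colour Agilent mouse arrays, 10 of the 28576 gene names with a value on all arrays, and were measured by 13 probes, 1 each for 8 of the genes. RNA came from E14.1 mouse embryonic stem (ES) cells and their progeny, with 1 array for each of 3 groups and no replicates, so no difference below has a test, and each compares 2 arrays. All cells grew in a medium with N2 and B27 supplements. ES cells (day 0) were kept on gelatin with BMP4 at 10 ng/ml and LIF at 1000 U/ml. Definitive endoderm (day 5) was made on collagen IV with activin A at 30 ng/ml in place of both factors. Early hepatic cells (day 7) had 2 more days with activin A, to which BMP4 at 30 ng/ml and bFGF at 10 ng/ml were added. Added factors and time in culture cannot be told apart in the last step. In the first step the same holds for activin A, the loss of BMP4 and LIF, the change of surface and time. No sort of the cells is described in the labels, so each array reads a whole culture, and in such bulk RNA fewer cells of a type and less RNA per cell cannot be told apart.

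Nodal is made as a precursor that proprotein convertases such as Pcsk6 cleave. It signals through activin receptors with an EGF-CFC co-receptor such as Tdgf1 (Cripto), and the receptors activate Smad2 and Smad3, which act with DNA-binding partners such as Foxh1. Activin uses the same receptors and Smads but does not need the co-receptor. The pathway induces its own secreted inhibitors, the Lefty proteins and Cer1, and in the embryo it patterns the primitive streak and specifies the endoderm.

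Of 43379 gene spots on each array, 70.9% to 71.7% were well above background, and no gene spot was saturated. Values below are log2 processed signals minus each array's 75th percentile, so that 0 is that percentile. Each member probe was printed as 1 spot. Among probes printed as 10 spots, the median SD between spots of 1 array was 0.075 to 0.079 (log2), which gives about 0.11 for a difference of 2 single spots. This spread is technical and leaves out cultures, RNA preparation and labelling. The median difference over all genes measured on both arrays was -0.13 for day 5 minus day 0, -0.20 for day 7 minus day 0 and -0.09 for day 7 minus day 5, and differences are to be read against these shifts. A gene is called higher or lower at a difference of at least 1 (2-fold) with its probe well above background on the brighter array. Where a probe was below that mark on the dimmer array, the array's lowest well-measured signal stands in for the probe (or its own signal if higher) and the fold is written as "at least". The values were recomputed in 9 other settings of background correction, scaling, probe choice and filter. Among them is limma's normexp background correction, fitted over all spots or, as the refitted correction, without a few spots of very bright local background. For a gene with 1 probe, measured on every array, the settings of probe choice, filter and outlier spots return the main value.

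The labels were checked against marker genes. The summed signal of 6 ES cell genes, relative to the 75th percentile, was 212, 8.14 and 10.52 on days 0, 5 and 7. Klf4 carries the last value (0.19 on day 5 and 3.11 on day 7, log2), while 4 of the 6 were at least 2-fold lower on day 7 than on day 5. That of 6 definitive endoderm genes was 1.36, 91.2 and 46.1, and that of 6 hepatic genes 0.121, 1.12 and 27.9. Albumin, a defining hepatic gene, was not well above background on day 7. Of 8 genes of visceral and other extraembryonic endoderm, all were well above background on every array, with a summed signal of 3.16, 6.87 and 95.2, and 7 of the 8 were at least 2-fold above day 5 on day 7. Of 7 mesoderm and heart genes, all were also well above background on every array (6.48, 33.1 and 19.0). Myl7 is the largest term on day 5 (4.86, log2) and Hand1 on day 7 (3.08, against 2.70 for Myl7). From day 5 to day 7, 4 of the 7 were at least 2-fold higher and 2 lower. Summed signals were 12.6, 84.0 and 33.4 for 3 epiblast genes, 0.933, 2.82 and 3.55 for 3 neural genes, and 0.372, 1.72 and 3.10 for 3 trophoblast genes. Nes carries the neural sum (-0.20, 1.47 and 1.81, log2), while Sox1 and Pax6 were far dimmer and slightly lower at each step. The epiblast gene Pou3f1 differed from day 0 by -0.12 on day 5 and by -2.55 on day 7. The trophoblast gene Cdx2 was 18.8-fold below day 0 on day 5, while Elf5 and Gata3 were higher. The epiblast and neural genes were all well above background on every array. Of the trophoblast genes, 2 were so on day 0 and 3 on days 5 and 7. Because Cer1 and Lefty1 are made in anterior visceral endoderm as well as in definitive endoderm, these values stand beside the results below. Their part in them was not tested.

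The first 30 bases of the 60-base probes are shown for the Lefty pair, whose probes are unlike each other. They are also shown for Cer1 and Gdf3, on which the widest differences rest:
Lefty1: ctttcatgcaaatctgaagtgctcattata
Lefty2: ttgtcctaacttagtgctctcgtcagacct
Cer1: agacgaaatcttctactcgtatgcttttga
Gdf3: tggacttacacttagagattttggtcaaag
The Lefty1 and Lefty2 probes share no run longer than 7 bases, and none of the 13 member probes shares a run of 20 bases with any other gene probe of the array. Neither Lefty probe was compared with the transcript of the other gene, so reading of one gene by the other's probe was not tested. Probe positions below are in the build mm9. No annotation of that build was used here, so exons and UTRs are not named.

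From day 0 to day 5, the 3 secreted inhibitors and Nodal itself were higher and 3 members were lower. Of 10 members, 5 were at least 2-fold higher (Nodal, Lefty1, Lefty2, Cer1 and Acvr1c), against 16.5% of all 21655 genes compared. Acvr1c entered this comparison through its 1 measured reading, on day 5, and the count was 4 in the 4 settings that lose its call and keep Cer1. In those settings 1737 to 3341 of all 21655 genes were higher. At least 2-fold lower were 3 (Tdgf1, Gdf3 and Pcsk6), against 16.1% of all genes. The median difference of the members was 0.55 and that of all genes -0.11, but the members' median has no settled sign: it was 0.03 with the median over probes and -0.22 over the 8 members measured on every array. From day 5 to day 7, 7 of 10 were at least 2-fold lower, against 8.39% of all genes, and 0 were higher, against 5.97%. Acvr1c is again among the 7 through its day 5 reading. The count was 6 with the refitted correction, where 1021 of all 21655 genes were lower. With normexp over all spots it was 5, where 438 of all genes were lower. The median was then -2.14 (-3.24 to -0.90 in the other settings), and -0.06 over all genes. Both steps use the day 5 array, so a high value there enters both differences, with opposite sign. On day 7 against day 0, 1 member was higher (Cer1) and 4 were lower (Lefty2, Tdgf1, Gdf3 and Pcsk6), against 16.2% and 19.1% of all genes.

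**Figure D1:**
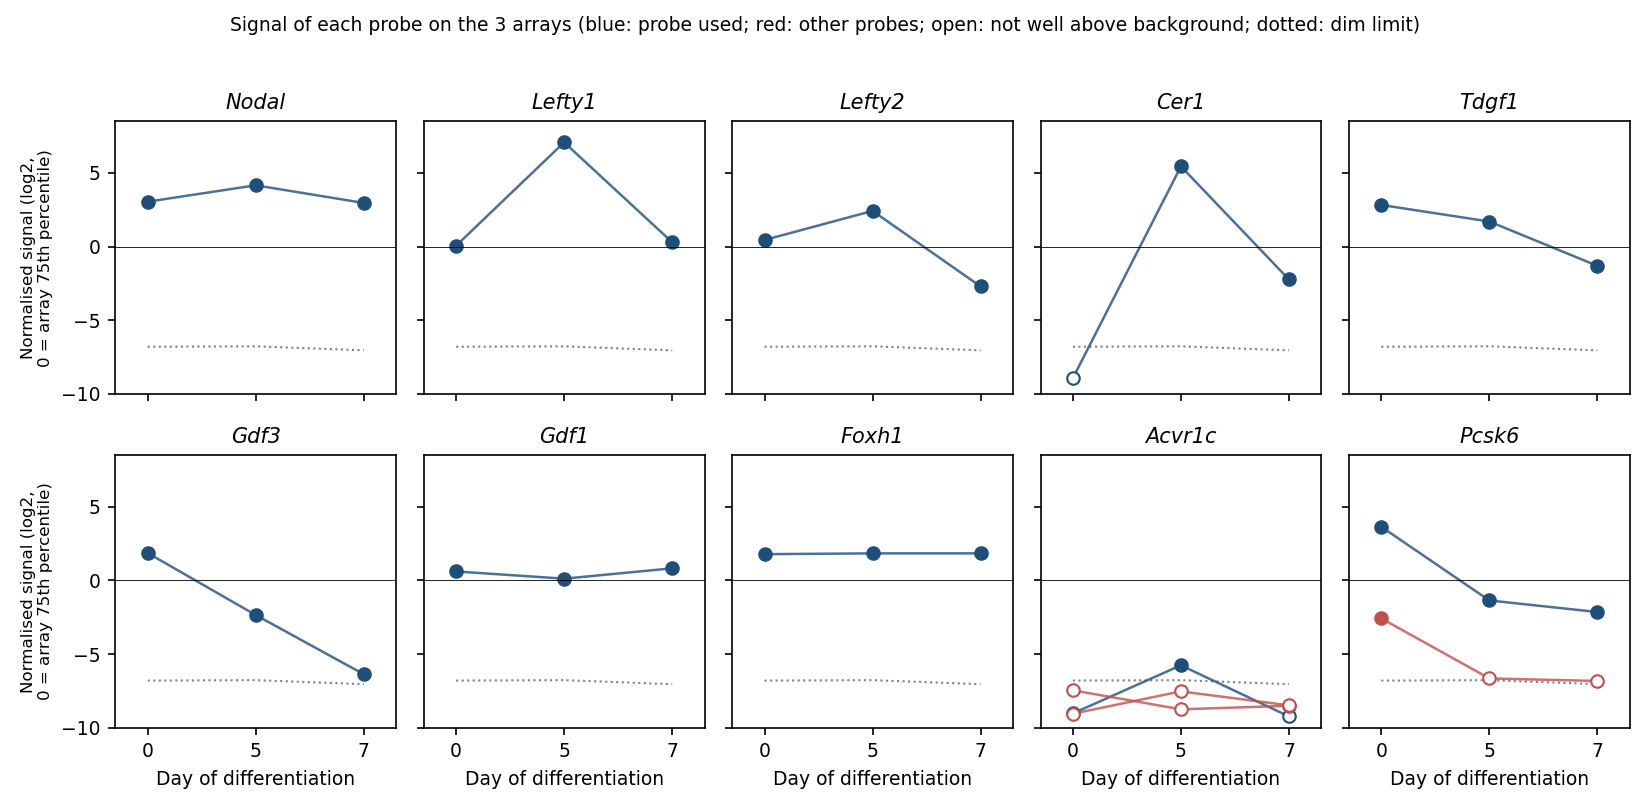
Normalised signal (log2, 0 is the array's 75th percentile) of every probe of the 10 members on days 0, 5 and 7, with 1 array per day; open points were not well above background and the dotted line is the lowest signal that was. Lefty1, Lefty2, Cer1 and Nodal peak on day 5, Gdf3 and Tdgf1 are lower at each step, and Foxh1 lies at 1.79 to 1.84.

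Nodal, the ligand (chromosome 10, 60887790 to 60887849), had an intensity of 12968 on day 0, 36739 on day 5 and 16032 on day 7, and normalised values of 3.05, 4.16 and 2.96. The day 5 array was highest, and days 0 and 7 were nearly level. Day 5 was 2.16-fold above day 0, and day 7 was 2.29-fold below day 5. The difference between days 7 and 0 was -0.09, less than the spot spread, and it was above 0 in 3 of 9 other settings. Nodal transcript was thus bright before any activin was added. Its difference on day 5 was modest, with 3220 of 21655 genes at or above it, and it was 1.00 (log2) with median scaling, at the limit itself, and 1.78 with normexp over all spots.

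Gdf1 and Gdf3 are ligands of the same superfamily. Gdf1 can pair with Nodal, and Gdf3 is a gene of pluripotent cells. Gdf3 (chromosome 6, 122556770 to 122556829) read 5693 intensity units on day 0, 404 on day 5 and 24.9 on day 7, or 1.86, -2.35 and -6.36 on the normalised scale. It was lower at each step, by 18.5-fold and then 16.2-fold, and ended 300-fold below day 0. On day 7 its signal was close to the lowest that was well above background (-7.04), and the second step was 5.01-fold and the whole change 79.5-fold with the refitted background correction. With normexp over all spots the steps were -3.48 and -0.41 (log2), the second under 2-fold, and the whole change -3.89. Gdf1 (chromosome 8, 72855399 to 72855458) read 0.61, 0.12 and 0.82. No pair of days differed by 2-fold. Its differences of -0.49 and 0.70 were wider than the spot spread, and day 7 was 1.63-fold above day 5. Gdf1 overlaps Cers1 in the RefSeq gene table, and the 2 genes are known to share a transcript, so the probe may not tell them apart. No probe was named Cers1 here.

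Lefty1 and Lefty2 are neighbouring genes whose secreted proteins block Nodal and its co-receptor. Lefty1 (chromosome 1, 182868137 to 182868196) had intensities of 1633, 277221 and 2524, and normalised values of 0.06, 7.08 and 0.30 on days 0, 5 and 7. The day 5 array stood far above the other days, which were almost level with each other. Day 5 was 129-fold above day 0 and day 7 was 110-fold below day 5, so that day 7 ended 1.18-fold above day 0. Lefty2 (chromosome 1, 182827977 to 182828036) had intensities of 2138, 11010 and 316, and values of 0.45, 2.42 and -2.70. Its day 5 difference was smaller, at 3.93-fold, and it ended below its day 0 level: day 7 was 34.9-fold below day 5 and 8.89-fold below day 0. The neighbours therefore had the same order of days 0 and 5 but ended apart, one at its day 0 level and the other well under it. These directions and sides of the 2-fold limit held in the other settings of background correction and scaling. The remaining settings could not move these 1-probe genes. With normexp over all spots Lefty2 on day 7 differed by -4.22 from day 5 and by -2.04 from day 0 (log2).

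Cer1, a secreted protein that binds Nodal and BMP ligands, was read on chromosome 4, at 82527731 to 82527790. Its intensities were 3.23, 89534 and 438, and the day 0 spot was too dim to be marked as measured. The normalised values were -8.92, 5.45 and -2.23. Day 5 was at least 4845-fold above day 0, a bound set by the day 0 floor. It was at least 1044-fold with the refitted background correction, and the difference was 6.25 (log2) with normexp over all spots. Day 7 was 205-fold below day 5, yet at least 23.7-fold above day 0 (at least 6.09-fold with that correction, and a difference of 0.00 on the log2 scale with normexp over all spots). The day 7 difference from day 5 was -6.89 (log2) with normexp over all spots. In the step from day 5 to day 7, with the scaling used here, Cer1 had the lowest difference of all genes compared, Lefty1 ranked 3 and Lefty2 ranked 10 from the bottom. All 3 inhibitors were thus lower on day 7 than on day 5, and activin A was in the medium on both days.

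**Figure D2:**
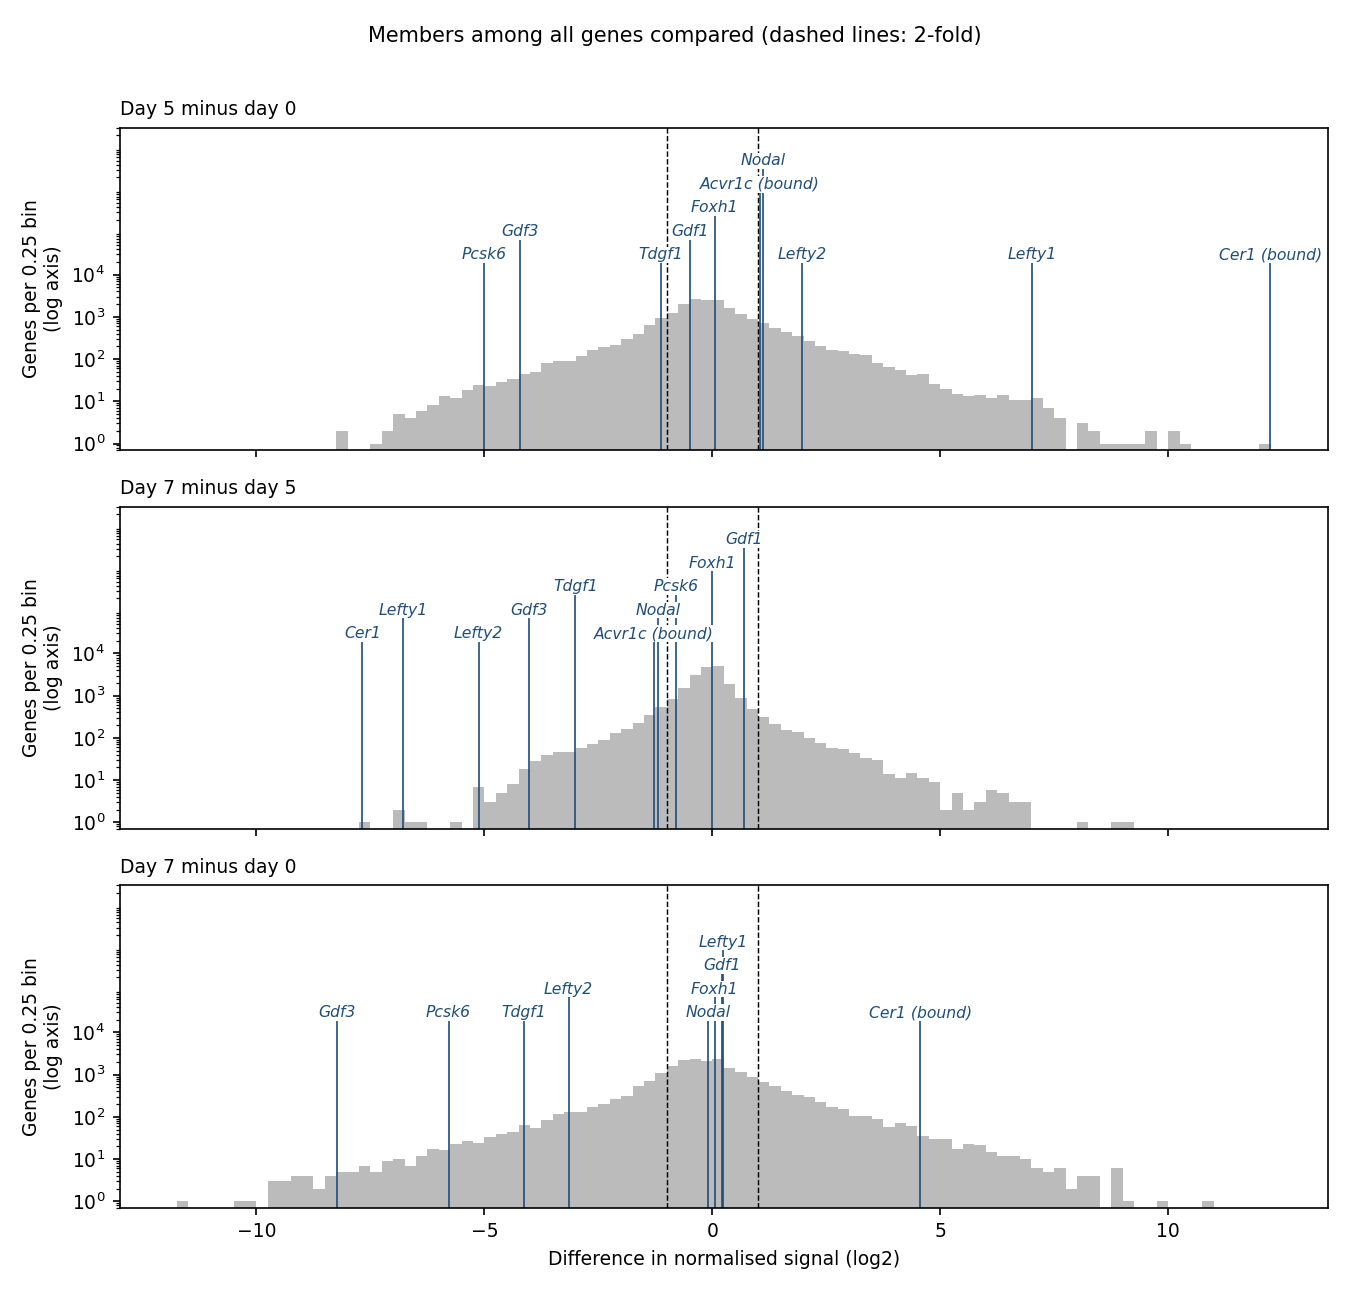
Number of genes by difference in normalised signal (log2) for each pair of days (grey bars, log axis, 21655 genes), with each member marked by a blue line and the 2-fold limits dashed; lengths of the blue lines only separate the names. Cer1 and Lefty1 lie at the upper end for day 5 minus day 0, and Cer1, Lefty1 and Lefty2 at the lower end for day 7 minus day 5.

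Upstream sequence was at hand for 6 of the 10 members. The windows of Cer1 and Nodal are shown because both genes were highest on day 5, with differences from day 0 of very different size. Each is the 250 bases before the RefSeq transcription start in GRCm38.p6, read along the gene's strand: Cer1 is chr4:82885152-82885401 (minus strand) and Nodal chr10:61417722-61417971 (plus strand), with capitals for the core Smad motif CAGAC on either strand:
Cer1: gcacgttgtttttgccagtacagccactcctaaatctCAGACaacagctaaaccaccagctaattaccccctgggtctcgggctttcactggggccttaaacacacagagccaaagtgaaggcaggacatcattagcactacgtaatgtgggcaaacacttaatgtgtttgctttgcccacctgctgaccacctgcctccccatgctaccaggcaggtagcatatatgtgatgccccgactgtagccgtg
Nodal: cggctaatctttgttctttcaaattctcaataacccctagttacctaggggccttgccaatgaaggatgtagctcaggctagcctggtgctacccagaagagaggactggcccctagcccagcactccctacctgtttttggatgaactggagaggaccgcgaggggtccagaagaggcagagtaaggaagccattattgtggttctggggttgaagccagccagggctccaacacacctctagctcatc
Cer1 held 1 such match, 213 bases before the start, and Nodal held 0. Among the other members with windows, those of Gdf1 held 2 and 1, that of Tdgf1 held 1, and those of Acvr1c and Pcsk6 held 0. Of all 32851 windows of this length, 42.2% hold at least 1, so that a match is common. The FOXH1 motif, searched as AATCCACA or AATACACA on both strands, was in 0 of the 8 windows of the 6 members and in 1.61% of all windows. The palindromic Smad motif GTCTAGAC was likewise in 0 of 8 and in 0.167% of all windows. These matches describe letters in a short window and say nothing about binding.

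Tdgf1, the co-receptor (chromosome 9, 110843254 to 110843313), had intensities of 11105, 6687 and 833, and values of 2.83, 1.71 and -1.30. It was lower at each step, by 2.18-fold and then 8.04-fold, the larger fold being the second. The first step was under 2-fold in the authors' deposited value table (-0.97 on the log2 scale) and with normexp over all spots (-0.48). The RefSeq table lists 2 Tdgf1 pseudogenes, and how far the probe reads them is uncertain. Cfc1 (Cryptic), the other EGF-CFC co-receptor of the mouse, was on a list of pathway genes that are no members. From day 0 to day 5 Cfc1 moved the opposite way, and its values were -1.94, 4.58 and 4.28. It was 91.2-fold above day 0 on day 5 and differed from day 5 by -0.29 on day 7. The related co-receptors thus differed in their course: Tdgf1 was highest on day 0, and Cfc1 was higher on days 5 and 7 than on day 0. On day 5 both were above the array's 75th percentile.

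Acvr1c (ALK7), a type I receptor for Nodal and activin B, had 3 probes on chromosome 2, between 58124514 and 58127141. Of 9 readings, 1 was well above background, that of the middle probe on day 5 (38.0 intensity units, -5.76). That probe was at least 2.05-fold above day 0 and at least 2.43-fold above day 7. Its calls were lost with the median over the probes and with both normexp corrections, and the call against day 0 with median scaling, so the probes give no settled direction for this gene. Of 9 receptors and Smads that are no members, all were measured on every array. Their median difference of day 5 from day 0 was 0.93, and that of all genes -0.11. The day 5 signal exceeded that of day 0 by 2-fold or more in 4 (16.5% of all genes) and was as far below it in 0 (16.1%). These were the type II receptors Acvr2b (1.36) and Tgfbr2 (2.40), the type I receptor Acvr1 (1.19) and Smad3 (1.24). A second Tgfbr2 probe differed by -0.23, so its direction depends on the probe, and a second Smad3 probe by 0.89. With normexp over all spots the calls of Tgfbr2, Acvr1 and Smad3 were lost, Acvr1b, Tgfbr1 and Smad4 were called higher instead, and Acvr2a was called lower (-1.17). Acvr2b, read by 1 probe, kept its call in the other settings of background correction and scaling. Acvr1b, the main type I receptor for activin and Nodal, was 2.78, 3.37 and 3.24 on the 3 days, and Smad4 3.65, 4.27 and 4.28. From day 5 to day 7, 0 of these 9 genes differed by 2-fold (median -0.13), where 5.97% of all genes were higher and 8.39% lower.

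Pcsk6 (PACE4) is a convertase that cleaves the Nodal precursor. Its brighter probe (chromosome 7, 73195129 to 73195188) had intensities of 19545, 802 and 465, and values of 3.64, -1.35 and -2.14. The day 0 array was highest, and days 5 and 7 were 32.0-fold and 55.1-fold below it. With normexp over all spots they were 19.0-fold and 20.8-fold below, and day 7 was 32.4-fold below with the median over probes. The second probe (chromosome 7, 73192472 to 73192531) went the same way, from -2.57 to signals not well above background on days 5 and 7. The difference between days 7 and 5 was under 2-fold. Other convertases went the opposite way. Furin, which also cleaves Nodal, was -0.81, 1.29 and 1.46, and Pcsk5 was -5.60, 0.61 and 1.48. Furin was thus 4.30-fold and Pcsk5 73.9-fold above day 0 on day 5. A second Furin probe was dim on all arrays. Of the 5 other Pcsk5 probes, 2 also exceeded 2-fold (at least 2.08 and 3.14 on the log2 scale), 1 differed by 0.78 as a bound, and 2 were dim on days 0 and 5. Over the other settings the Pcsk5 difference ran from 1.68 to 6.25 and the Furin difference from 1.07 to 2.10 (log2).

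Foxh1, the forkhead factor that brings Smad2 to target genes (chromosome 15, 76499155 to 76499214), had values of 1.79, 1.84 and 1.84. All 3 arrays were level, with differences of 0.06 or less, under the spot spread, and from -0.07 to 0.46 in the other settings, where the sign was not settled. Among 14 other intracellular partners and repressors, 3 exceeded their day 0 signal by 2-fold on day 5 and 1 was as far below it (median 0.47). They were Pmepa1, a membrane protein that restrains Smad2 and Smad3 (3.46, and 5.75 at its second probe), the endosomal Smad anchor Zfyve9 (1.52, other probes 0.02 and 1.78) and the Smad corepressor Skil (1.16, second probe 0.67). Smad7, an inhibitory Smad, was lower (-1.20). Both counts lie near the shares of all genes, 16.5% higher and 16.1% lower. With normexp over all spots Skil was the one higher call, Zfyve9 turned to lower (-1.07), Pmepa1 was 0.93 and the call of Smad7 was lost. From day 5 to day 7 Pmepa1 alone differed by 2-fold in this list (-1.44, median of the list -0.15), where 5.97% of all genes were higher and 8.39% lower.

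Target genes were read from 14 genes that are no members. Among them, Foxa2, Sox17 and Hhex are also definitive endoderm genes and Fgf5 an epiblast gene of the label check, so the lists overlap. The list was chosen with earlier results of these data known, so its counts are no independent test of the pathway. Of the 14, 13 exceeded their day 0 signal by 2-fold or more on day 5 (16.5% of all genes) and 0 were as far below it (16.1%). Mixl1 is among the 13 as a bound, because its day 0 spot was not well above background. Its difference was 0.00 (log2) at its lowest over the other settings. The median difference of the 14 was 6.91, and -0.11 over all genes. The widest were the primitive streak factors Lhx1 (10.06) and Gsc (9.07) and the retinoic acid enzyme Cyp26a1 (9.50). On day 7, 10 of 14 were at least 2-fold lower than on day 5 (8.39% of all genes) and 0 higher (5.97%), with a median of -1.20. The lowest were Gsc (-5.04), Lhx1 (-3.27) and Fgf8, a growth factor of the streak (-2.93). Foxa2 and Sox17, endoderm factors, differed by -0.31 and -0.63 in that step. Gsc was 32.8-fold lower in that step. The lowest day 5 differences from day 0 over the other settings were 7.10 for Lhx1, 5.80 for Gsc and 5.55 for Cyp26a1.

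The other ligands and extracellular proteins included the genes of activin itself. Of 15 such genes with a probe, 8 were higher by 2-fold or more (16.5% of all genes) and 2 lower (16.1%) in the first step, with a median of 1.01. In the second, 5 were higher (5.97%) and 1 lower (8.39%), with a median of 0.39. Inhba and Mstn are among the 5 through their day 7 readings alone. Over the 13 genes measured on every array, 3 were higher, where 897 of 18478 genes were. With the refitted correction 3 of 15 were higher, where 856 of 21655 genes were. With normexp over all spots the first step had 6 higher and 5 lower, with a median of 0.00. In that setting 1737 of 21655 genes were higher and 9571 lower. The median over genes measured on both arrays was then -0.64. Inhba, which encodes the subunit of activin A, was not well above background on days 0 and 5, and on day 7 was at least 5.42-fold above day 5, a call lost with the refitted correction (0.99, log2). Inhbb, the subunit of activin B, was 2.64, 0.61 and -3.10, lower at each step, although its second probe differed by -0.18 from day 5 to day 7. Fst (follistatin, which traps activin) was 2.01-fold higher on day 5 than on day 0 and 4.09-fold higher on day 7 than on day 5; the first step was under 2-fold in 5 of 9 other settings and its lowest value over them was -0.38 (log2), so its direction is not settled. Tgfb2, another ligand of the superfamily, read -3.58, 0.42 and 0.80, 16.0-fold above day 0 on day 5 (at its lowest over the other settings, 1.39 on the log2 scale). Bmp4 was 1.38, -1.31 and 2.00, lowest on the day without BMP4 in the medium. Mstn (myostatin) was well above background on day 7 and on no other day.

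**Figure D3:**
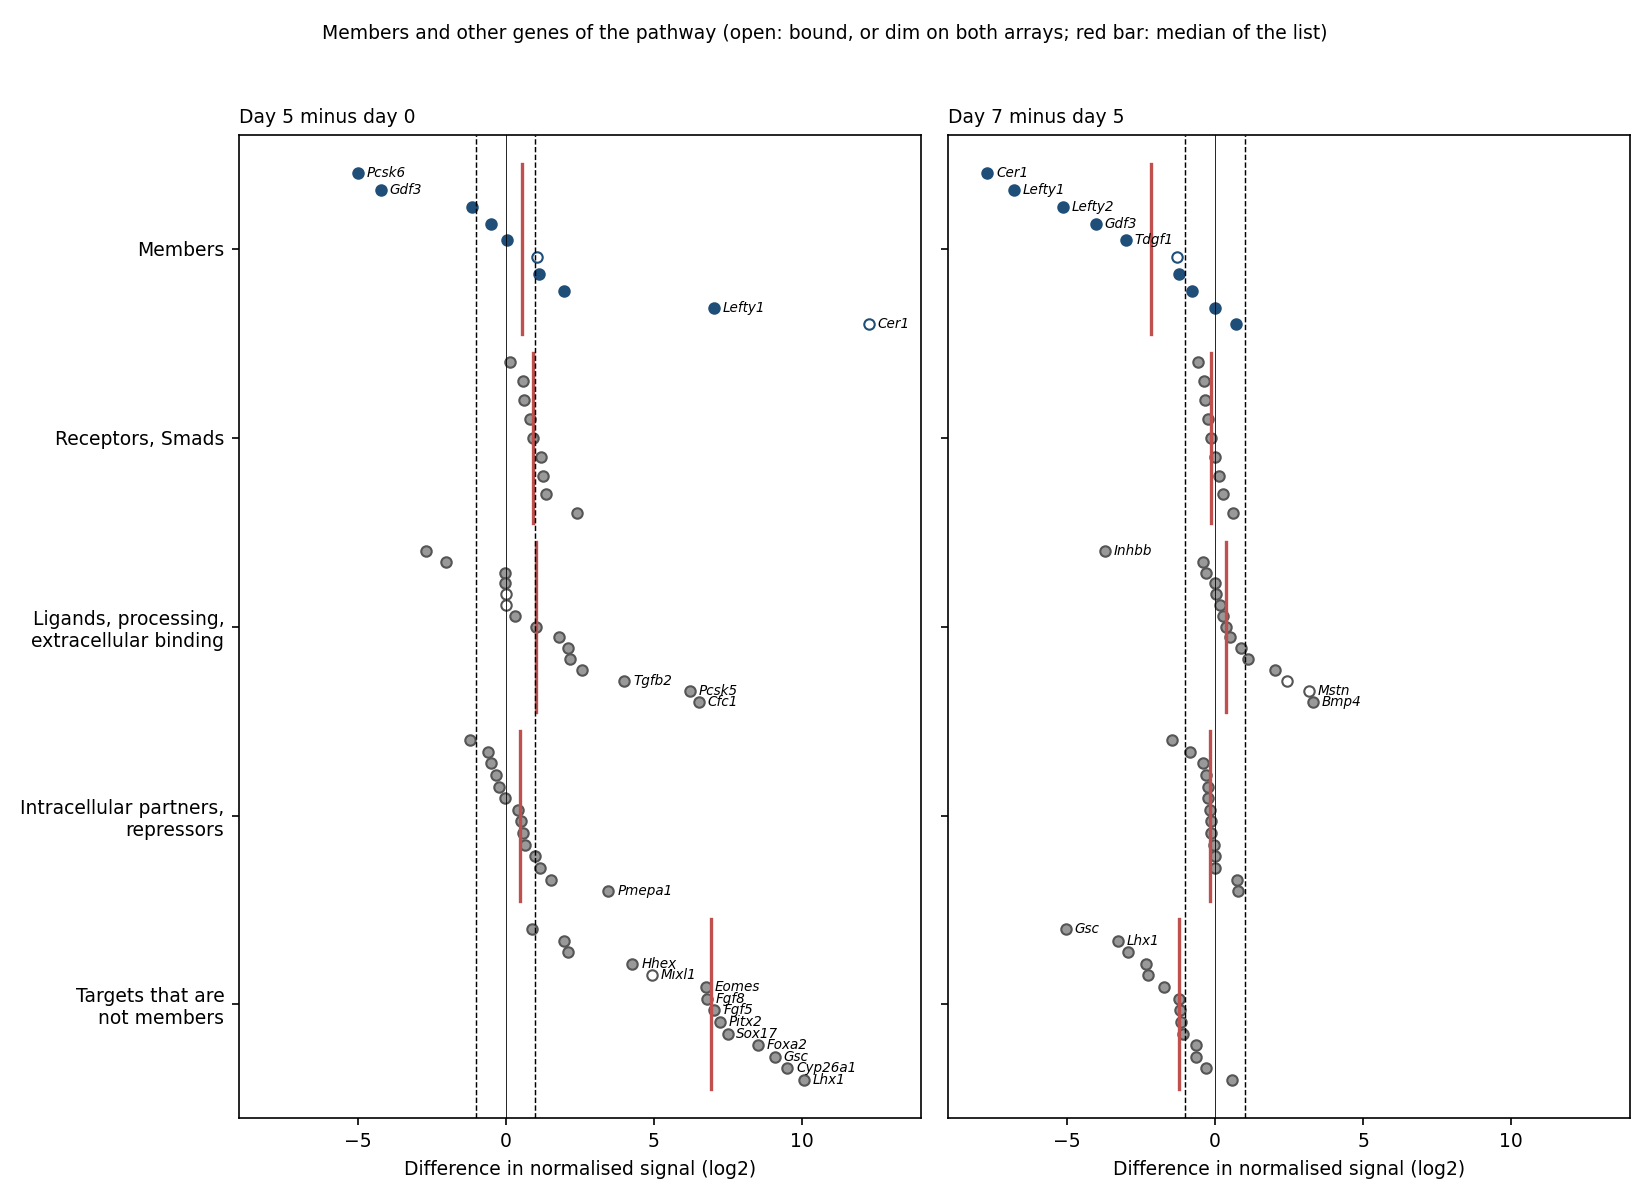
Difference in normalised signal (log2) of the members (blue) and of 4 lists of other pathway genes (grey) for day 5 minus day 0 (left) and day 7 minus day 5 (right); each point is 1 gene, open points are bounds or genes dim on both arrays, red bars are list medians and dashed lines mark 2-fold. The member median, whose sign for day 5 minus day 0 changes with the setting, moves from 0.55 to -2.14 while that of the receptors and Smads moves from 0.93 to -0.13.

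Genes whose course was most like a member's were sought among 14025 named genes well above background on all arrays, by the distance between their pairs of differences (day 5 minus day 0 and day 7 minus day 5, log2) over 3 arrays. With so few arrays many genes lie near a flat or small course: the nearest to Foxh1, Nodal and Gdf1 were within 0.05. Those nearest to Nodal were Agpat5, Brinp1 and Septin6. Lefty1 had no close neighbour, with Alx1 at 1.35, Tph1 at 1.93 and Gsc at 2.69. Lefty2 was nearest to C8b (0.99), Gata1 (1.04) and then Pdyn. Gdf3 was nearest to Dppa5a, at 0.15, then Tex19.1 and Tekt1, and Tdgf1 to Apof, Jakmip1 and Cfap52 (0.15 to 0.27). Pcsk6 was nearest to Tcl1, at 0.02, then Mcf2 and Arhgap30. Cer1 and Acvr1c were left out because they were not measured on every array.

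**Figure D4:**
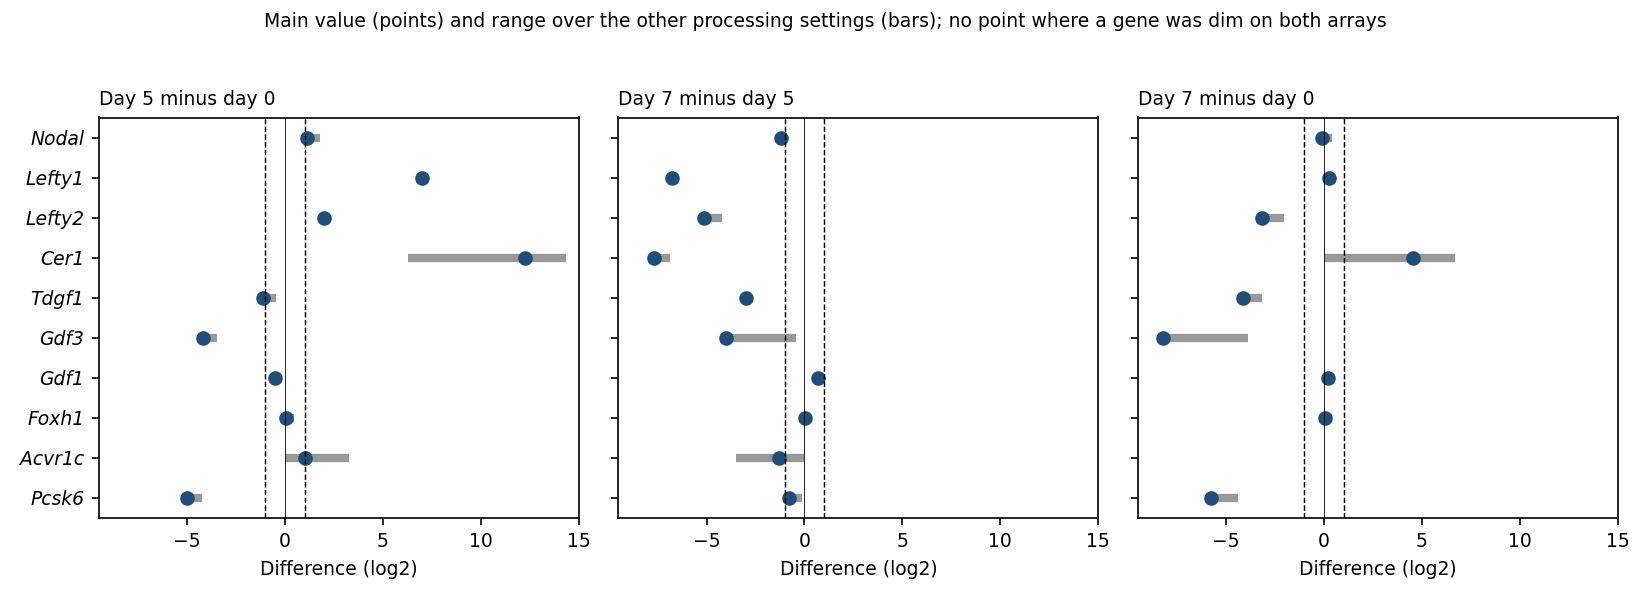
Difference (log2) of each member in the main setting (points) and its range over the other processing settings (grey bars) for each pair of days; dashed lines mark 2-fold. Lefty1 hardly moves with the setting, whereas Cer1, Gdf3 and Acvr1c, each with a low signal on at least 1 array, have wide ranges.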

How the data were processed

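Per the file headers, the 3 one-colour arrays lay on 1 slide and the authors read them out with Agilent Feature Extraction (build mm9). Spot values in the deposited scanner output are fluorescence intensity. Flags in the deposited files mark spots well above background. The authors' deposited value table holds log2 values of 41252 probes, with the same median (7.1678) in each column and a correlation with the scanner values of at least 0.9998; how the columns were equalised is not stated there.

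Normalised values are log2 of the processed signal after subtracting, on that scale, the 75th percentile of the array's gene spots. Outlier spots (104 to 149 per array) and control spots were left out, and spots of 1 probe averaged. Probes were named by member symbol, by RefSeq accession (24973 probes) or symbol in a GRCm38.p6 table (5976), or as in the files (10225). The probe well above background on most arrays, then the brightest, stood for a gene, and 21655 genes measured on at least 1 array were compared. Named genes are all members, the up to 3 genes furthest each way per pathway list in either step, and the 3 nearest courses; further pathway genes were named after their values were seen, as was the CAGAC motif. Members, lists and rules were chosen with earlier results of these data known. Python 3.11.15, pandas 2.3.3 and limma 3.58.1 (normexp, offset 50) were used. Groups follow the cell type in the labels; with 1 array per day, the number of arrays limits the precision.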

Additional observations from a re-analysis of the deposited data

How the results depend on the processing

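The counts of members past the limit were recomputed with the background correction, scaling, probe choice, dim filter, call limit and outlier spots changed one at a time. On day 5 against day 0 the count higher was 3 of 8 members when every array had to be well above background (2901 of 18478 genes). Cer1 and Acvr1c drop out there. The count was 2 with a 4-fold limit (1509 of 21655 genes). On day 7 against day 0 it was 0 with the normexp correction (1577 of 21655 genes) and 0 under the filter on every array (2876 of 18478). On day 7 against day 5 it was 1 (Gdf1) with a 1.5-fold limit (2312 of 21655 genes). All other counts stayed within 1.5 times the main one. The normexp fit over all spots was pulled by a few spots with bright local background (fitted mean -1242 on day 0), so a fit without them was added after seeing the data. With the fit over all spots, Cer1 on day 5 against day 0 was 6.25 and Gdf3 on day 7 against day 5 was -0.41 (log2). Of 256 alternative values of single members 85 moved by more than the spot spread and 0 reversed a called direction. That 0 was partly fixed in advance, because a bound that changes sign is set to 0. This happened with normexp over all spots to Cer1 on day 7 against day 0 and to Acvr1c in both steps. It also happened to Acvr1c in both steps with the median over probes. Values of 1-probe genes measured on every array also cannot change with probe choice, filter or outlier spots. Median scaling moved the median of all genes by -0.11 (day 5 against day 0) and 0.15 (day 7 against day 5). No paired analysis was possible because each group has 1 array; all arrays lay on 1 slide, so no slide block could be fitted. Low signal limits Cer1 on day 0, Gdf3 on day 7 and Acvr1c on all days.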
